A study of Homo sapiens with 8 samples.

Results

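The 10 genes described here belong to the bone morphogenetic protein (BMP) pathway: BAMBI, ID1, ID2, ID3, ID4, BMP2, BMP4, SMAD1, SMAD6 and SMAD9. They were found through the accession of each probe and are covered by 12 of the 41000 probes of the array, which carry 17240 gene symbols in all. The group was selected on measured values: BAMBI had been seen to be lower in ErbB2-KD cells and to divide the MUC4-KD arrays into pairs, array 1 with 3 and array 2 with 4. The values of BAMBI are therefore given as a description, with no test.

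All RNA came from CAPAN-2, an established cell line of human pancreatic adenocarcinoma, and was measured on 8 Agilent 2-colour arrays. On 4 arrays, clones stably transfected with a pGeneClip plasmid encoding an shRNA against ErbB2 (ErbB2-KD), selected with puromycin, were compared with NT. NT is the pool of 4 clones carrying the empty vector, called untreated in the labels. On the other 4 arrays, clones infected with a pRetroSuper retrovirus against MUC4 (MUC4-KD), selected with G418, were compared with Mock. Mock is again a pool of 4 empty-vector clones. By the methods each array held 1 knockdown clone. The array labels carry clone names for ErbB2-KD only, so they do not say whether any MUC4-KD arrays share a clone. Each experiment was balanced for dye, with 2 arrays in either orientation. Because a pool was not hybridised as a sample of its own, it counts as 1 control sample, and the tests leave out the spread between control clones.

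BMP ligands bring together pairs of receptor kinases at the cell surface, which phosphorylate SMAD1, SMAD5 and SMAD9. These enter the nucleus with SMAD4 and switch on target genes, among them the ID genes and several inhibitors of the pathway itself. ID proteins bind E proteins, a class of basic helix-loop-helix transcription factors, and keep them from DNA. BAMBI is a membrane pseudoreceptor that resembles a receptor of the TGF-β family but lacks the kinase domain, and it damps signalling by BMP and TGF-β. In the pancreas SMAD4 is known as a gene often lost in ductal adenocarcinoma.

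BAMBI, ID1 and ID3 carry the results below, and the 250 bases before the start of each are shown because all of them are known targets of the SMADs. The sequences are those of RefSeq on GRCh38.p14, 5′ to 3′ on the strand of the gene. Capitals mark GGCGCC and GGAGCC, GC-rich words that SMAD proteins can bind, on either strand (GGCTCC is GGAGCC on the other strand).
BAMBI, chr10:28677271-28677520, plus strand: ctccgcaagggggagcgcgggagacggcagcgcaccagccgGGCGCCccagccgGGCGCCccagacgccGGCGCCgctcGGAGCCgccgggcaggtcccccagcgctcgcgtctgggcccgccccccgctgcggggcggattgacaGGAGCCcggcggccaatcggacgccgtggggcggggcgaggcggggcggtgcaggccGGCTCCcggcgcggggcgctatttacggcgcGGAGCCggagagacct
ID1, chr20:31605039-31605288, plus strand: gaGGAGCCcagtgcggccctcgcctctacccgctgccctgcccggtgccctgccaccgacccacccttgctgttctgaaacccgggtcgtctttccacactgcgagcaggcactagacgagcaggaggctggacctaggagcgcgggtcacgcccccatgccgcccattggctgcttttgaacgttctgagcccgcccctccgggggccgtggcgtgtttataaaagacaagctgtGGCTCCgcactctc
ID3, chr1:23559502-23559751, minus strand: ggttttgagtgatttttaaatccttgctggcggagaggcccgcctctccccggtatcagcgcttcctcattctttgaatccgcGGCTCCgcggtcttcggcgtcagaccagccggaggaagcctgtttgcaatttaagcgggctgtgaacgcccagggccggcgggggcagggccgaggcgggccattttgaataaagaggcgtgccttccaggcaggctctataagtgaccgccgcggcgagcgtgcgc
The BAMBI window held 3 copies of GGCGCC and 4 of GGAGCC. The ID1 window held 2 copies of GGAGCC, the ID3 window held 1, and neither held GGCGCC. Of 35116 windows of the same length in the table, 16.4% held GGCGCC and 30.6% held GGAGCC. A match describes these letters only. Of the 10 genes, 9 had at least 1 window.

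Direction and array quality were checked before the genes were read. At its brighter probe ERBB2 was lower in ErbB2-KD on every array, with log2 ratios of -0.58, -0.32, -0.33 and -0.38, although the mean of -0.40 did not pass the test (adjusted p = 0.145, limma). Its dimmer probe averaged 0.04 (adjusted p = 0.897, limma) and showed no fall. The 4 tested probes of MUC4 had mean log2 ratios between 0.27 and 1.84, as the RNA labelled MUC4-KD relative to that labelled Mock, so MUC4 went against the label. The gene list of the study also runs opposite to the deposited MUC4-KD log ratios. For this reason the text speaks of the RNA labelled MUC4-KD and the RNA labelled Mock, and the sign of these ratios would turn if the labels were exchanged. In each channel 56.7% to 74.2% of the probes stood well above background, and 0 spots were saturated. On MUC4-KD array 4 the normalised ratios of 6693 dim tested probes (mean log2 intensity under 8) were close to 0, with a median size of 0.03, whereas the scanner software's own log ratios of the same probes had a median size of 0.86, the largest of the 8 arrays. On the other 7 arrays the normalised median size was 0.08 to 0.29. All 8 ductal epithelial markers were above background in all 16 channels, and so were CHGA, CD14 and CD79A, markers of other cell types. Tested for a change, CHGA, CD14, CD79A and VWF passed in neither experiment, with the lowest adjusted p at 0.188 for VWF in ErbB2-KD (limma).

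BAMBI was lower in ErbB2-KD than in NT on all 4 arrays, with log2 ratios of -5.35, -2.79, -2.29 and -5.14. The mean was -3.89 ± 1.57 (SD, n = 4), which is 14.9-fold. Arrays 1 and 4 lay close together and far below arrays 2 and 3, and each of these pairs joins opposite dyes. The scanner software's ratios were -6.11, -2.96, -2.32 and -8.07, so arrays 1 and 4 were less alike there. The ErbB2-KD channel was dim on arrays 1 and 4, at log2 intensities of 7.75 and 7.88. The size of the fall there depends on how the background is handled. In the MUC4-KD experiment the log2 ratios of BAMBI were 1.23, -2.35, 0.95 and -1.97, with a mean of -0.53 ± 1.89 (SD, n = 4). Arrays 1 and 3 were above 0 and arrays 2 and 4 below it, so the mean stands for neither pair, and without array 2 it turned to 0.07. These pairs also join opposite dyes.

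**Figure D1:**
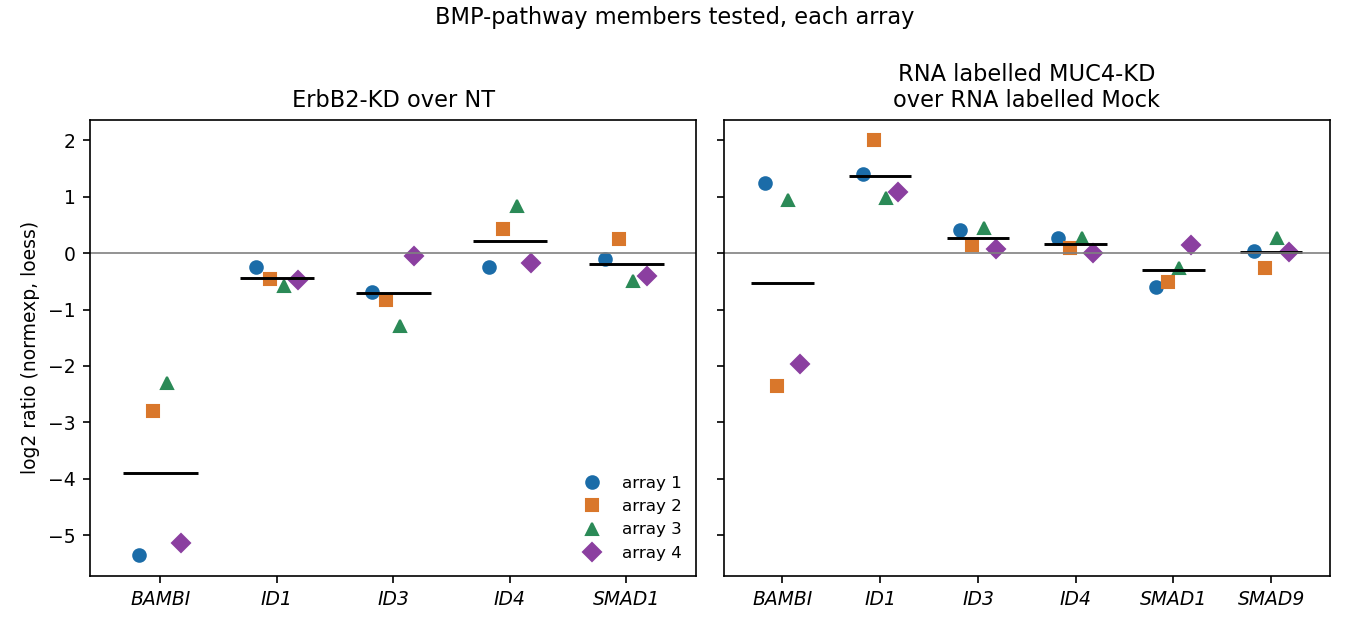
Log2 ratio of each tested gene on each array, with ErbB2-KD over NT on the left and the RNA labelled MUC4-KD relative to that labelled Mock on the right, where points are arrays and black lines are means of 4. BAMBI lies below 0 on all 4 ErbB2-KD arrays and splits into arrays 1 and 3 against arrays 2 and 4 on the right, while ID1 lies between 0.98 and 2.00 on all 4 arrays labelled MUC4-KD.

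The channel of each RNA showed where this variation lay. In the ErbB2-KD experiment the log2 intensity of BAMBI in the NT pool was 13.10, 12.89, 13.13 and 13.02 on arrays 1 to 4, an SD of 0.11, and that in ErbB2-KD was 7.75, 10.10, 10.83 and 7.88, an SD of 1.56. The pool was thus steady over 3 slides and both dyes, and the knockdown RNA varied. In the MUC4-KD experiment the RNA labelled MUC4-KD was the steady one, at 11.50, 11.34, 11.27 and 11.44, an SD of 0.10. The RNA labelled Mock was at 10.26, 13.69, 10.33 and 13.41, an SD of 1.88. The split of the MUC4-KD arrays by BAMBI therefore lay in the channels labelled as the control pool.

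The same contrast held over the probes of other genes. In the ErbB2-KD experiment the knockdown channel varied more than the pool's channel at 81.2% of 23744 tested probes, with median SDs of 0.35 and 0.17. In the MUC4-KD experiment the channel labelled MUC4-KD varied more at only 27.0% of 24914 tested probes, with a median SD of 0.15 against 0.25 for the channel labelled Mock. Among the 507 probes whose log2 ratio had an SD over 1 there, the median SDs were 0.40 and 0.92. A pool is 1 RNA on all 4 arrays, and the methods give that role to Mock. Whether the labels of the MUC4-KD arrays were exchanged was not tested.

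**Figure D2:**
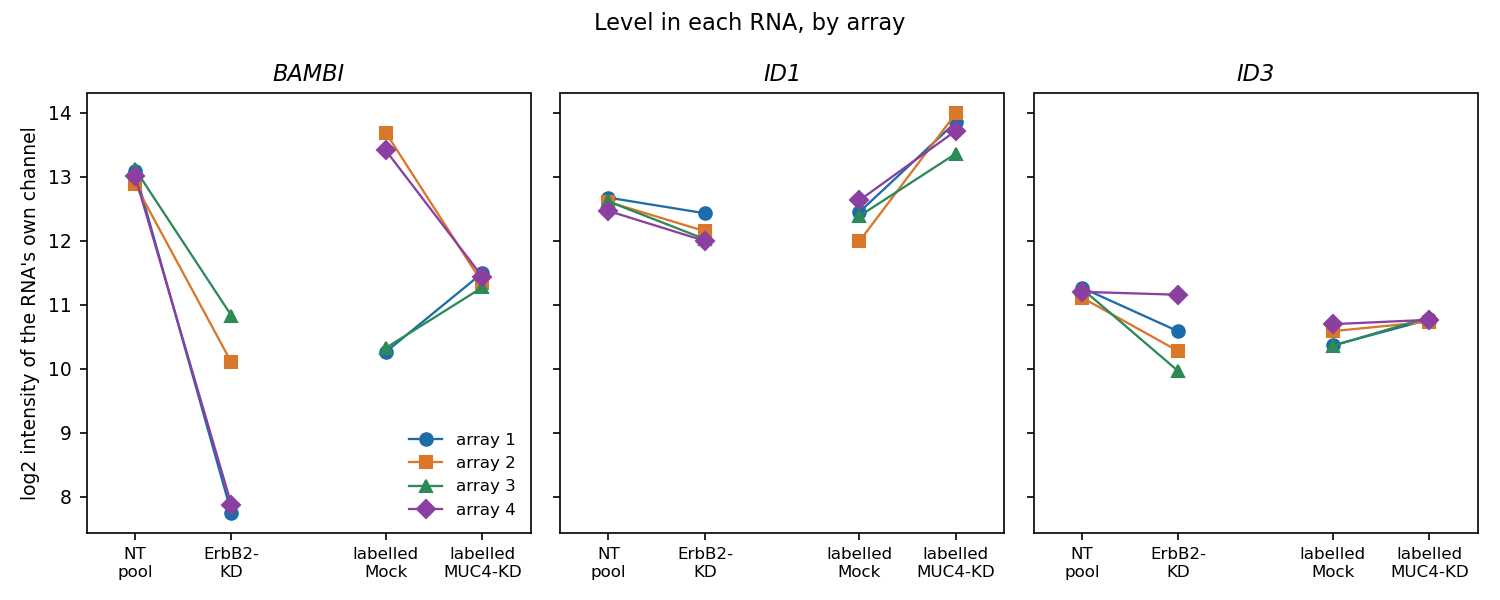
Log2 intensity of BAMBI, ID1 and ID3 in the channel of each RNA, with the control on the left and the knockdown on the right of each pair. A line joins both channels of 1 array. BAMBI is tight in the NT pool (SD 0.11) and in the RNA labelled MUC4-KD (SD 0.10) and spread in ErbB2-KD (SD 1.56) and the RNA labelled Mock (SD 1.88).

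The arrays as a whole did not split as BAMBI did. MUC4-KD arrays 1 and 3 share a slide, and arrays 2 and 4 lie on the other slides. Over 24969 tested probes outside the gene lists, the median absolute difference of log2 ratios was 0.21 between arrays 1 and 3, also 0.21 between arrays 1 and 2, and 0.38 between arrays 2 and 4. For BAMBI these differences were 0.29, 3.58 and 0.37. The part of the slide in the pairing of BAMBI was not tested. Within slides, the ErbB2-KD ratio of BAMBI minus its MUC4-KD ratio was -0.82, -1.47 and -6.23. These values are a description only, since BAMBI was chosen for its fall and its split on these arrays.

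ID1 was the only one of these genes to pass the test in either experiment, BAMBI aside. ID1 codes for an inhibitor of E proteins and is a direct target of BMP signalling. It rose in the RNA labelled MUC4-KD, with log2 ratios of 1.41, 2.00, 0.98 and 1.09. The mean was 1.37 ± 0.46 (SD, n = 4), or 2.58-fold, higher on 4 of 4 arrays (adjusted p = 0.0109, limma). In ErbB2-KD the ratios of ID1 were -0.24, -0.46, -0.59 and -0.47, all below 0 but small. Their mean of -0.44 ± 0.14 (SD, n = 4) did not pass (adjusted p = 0.130, limma), and its 95% interval before adjustment ran from -0.72 to -0.16. The call in the RNA labelled MUC4-KD was lost without array 1 (adjusted p = 0.0575, limma) or array 3 (adjusted p = 0.0653, limma), under median centring in place of loess (adjusted p = 0.463) and by the methods' t-test (adjusted p = 0.115 after correction). The log2 mean stayed between 1.16 and 1.56 under all 16 alternatives.

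The difference between the experiments was clearest at ID1. Its ErbB2-KD ratio minus its MUC4-KD ratio was -1.81 ± 0.23 (SE, limma over 8 arrays, adjusted p = 0.00420). Within the 3 slides the difference was -1.54, -2.41 and -1.66. Each of the 8 arrays could be left out with the call kept, the adjusted p lying between 0.00242 and 0.0202 (limma), but median centring ended it (adjusted p = 0.209). With the sign of the MUC4-KD arrays turned, ID1 would be lower in both experiments and the difference would be 0.93 (adjusted p = 0.0259, limma). Its direction thus rests on the labels.

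ID3, a further E protein inhibitor, had lower values in ErbB2-KD, at -0.68, -0.84, -1.29 and -0.05. Array 4 stood near 0, and the mean of -0.71 ± 0.51 (SD, n = 4) did not pass (adjusted p = 0.159, limma). On the MUC4-KD arrays the ratios were 0.41, 0.15, 0.45 and 0.07, all small and above 0, with a mean of 0.27 ± 0.19 (SD, n = 4, adjusted p = 0.147, limma). The scanner software's ratio on array 4 was -0.29, of the other sign. The difference between the experiments was -0.98 ± 0.25 (SE, adjusted p = 0.0415, limma over 8 arrays), and -0.91, -1.13 and -0.47 within the slides. This call was lost without any 1 of ErbB2-KD arrays 1 to 3 or MUC4-KD arrays 1 to 3, with adjusted p up to 0.119 (limma), and with the sign turned (difference -0.45, adjusted p = 0.238). It was also lost from the scanner software's ratios (adjusted p = 0.0692) and with MUC4-KD arrays 1 and 3, and 2 and 4, averaged as 1 sample each (adjusted p = 0.144, limma). The channels of ID3 had SDs of 0.51 in ErbB2-KD and 0.07 in NT. The SDs were 0.03 in the RNA labelled MUC4-KD and 0.17 in the RNA labelled Mock. Most tested probes outside the gene lists ran the same way, so this is not particular to ID3 and BAMBI. The knockdown channel was wider at 81.2% of them in ErbB2-KD and at 27.0% in the MUC4-KD experiment. For ID3 the 0.17 was below their median SD of 0.25 in the channel labelled Mock. The other tested members did not have a wider channel labelled Mock in the MUC4-KD experiment. There the SDs, labelled MUC4-KD first, were 0.27 and 0.27 for ID1 and 0.18 and 0.16 for ID4. They were 0.18 and 0.15 for SMAD1 and 0.13 and 0.13 for SMAD9.

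ID4, also an E protein inhibitor, passed in neither experiment. In ErbB2-KD its ratios were -0.24, 0.43, 0.83 and -0.18, on both sides of 0, with a mean of 0.21 ± 0.51 (SD, n = 4, adjusted p = 0.659, limma). The RNA labelled MUC4-KD gave 0.27, 0.09, 0.27 and 0.00, with a mean of 0.16 ± 0.13 (SD, n = 4, adjusted p = 0.318, limma). The intervals of these means before adjustment ran from -0.29 to 0.71 and from -0.11 to 0.43. ID2 could not be read: 1 of its probes was well above background in 0 of 16 channels, and the other in 3 of 16.

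The receptor-regulated SMADs showed no called change. SMAD1, a carrier of the BMP signal, had ratios of -0.10, 0.26, -0.49 and -0.41 in ErbB2-KD and of -0.60, -0.51, -0.26 and 0.14 in the RNA labelled MUC4-KD. The means were -0.19 ± 0.34 (adjusted p = 0.595) and -0.31 ± 0.33 (adjusted p = 0.185, SD, n = 4, limma in both), and without MUC4-KD array 4 the latter was -0.45 and passed (adjusted p = 0.0351, limma). A second SMAD1 probe gave -0.08 and -0.06. SMAD9, a close relative of SMAD1, was bright enough only in the MUC4-KD experiment, where its ratios of 0.04, -0.27, 0.26 and 0.01 averaged 0.01 ± 0.22 (SD, n = 4, adjusted p = 0.949, limma). SMAD6, an inhibitory SMAD that BMP itself induces, was above background in only 5 of 16 channels and was not tested.

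Of the ligands, BMP2 cleared background in 3 of 4 channels labelled MUC4-KD and in 0 of 4 labelled Mock. Its normalised log2 ratios were 0.50, 0.40, 0.60 and 0.02, and those of the scanner software were 2.51, 2.27, 3.81 and 1.67. All 8 values were above 0, but their size depends on how the background is handled. From the intensities, with log2 means of 7.20 and 6.82, BMP2 was 1.30-fold higher in the RNA labelled MUC4-KD. This is the normalised mean ratio itself, with the dim channel near background, and it gives no lower bound. BMP2 did not enter the test. In ErbB2-KD, BMP2 was above background in 3 of 8 channels. BMP4 was above background in 4 of 8 channels in the ErbB2-KD experiment and 6 of 8 in the MUC4-KD experiment. Its ratios lay between 0.09 and 0.19 in the former and between -0.05 and 0.11 in the latter, and it was not tested in either.

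Thus 4 of the 9 genes other than BAMBI could be tested in ErbB2-KD. Of these, 0 were called by limma (adjusted p under 0.05), where 1.43% of 23869 probes were called. An unadjusted p under 0.05 was reached by 2 of them and by 4307 of the 23869 probes. In the RNA labelled MUC4-KD 5 could be tested and 1 passed, where 20.5% of 25047 probes passed. For the difference 2 of 5 passed, where 9.91% of 25835 probes passed. The genes were chosen with these arrays in view, so nothing is read from these shares.

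The wider pathway was followed through 69 genes in 6 lists of ligands, receptors, extracellular antagonists, SMADs with their regulators, targets and E proteins, of which 68 had a probe. Beside BAMBI, 35 could be tested in ErbB2-KD, of which 1 rose and 1 fell (5.71%, against 1.43% of all tested probes). In the RNA labelled MUC4-KD 40 could be tested, of which 2 rose and 3 fell (12.5%, against 20.5% of all tested probes). For the difference, 2 were higher and 4 lower of 40 (15%, against 9.91%). An unadjusted p under 0.05 (limma) was reached by 4307 of 23869 tested probes in ErbB2-KD. In the RNA labelled MUC4-KD it was reached by 10077 of 25047. No result is read from these shares or from the counts by list below.

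Among ligands only BMP6 and BMP8B were bright enough to test, and 0 of them passed in either experiment (0 also at an unadjusted p under 0.05). BMP6, named here after its values were seen, was high on a single array: its ratios in ErbB2-KD were 0.01, 0.49, 3.78 and 0.18. The scanner software gave 4.69 on that array 3. Among receptors and co-receptors 0 of 8 passed in ErbB2-KD and 0 of 9 in the RNA labelled MUC4-KD (limma; 1 and 0 at an unadjusted p under 0.05). Their median log2 ratios, BAMBI included, were 0.01 and -0.11, against -0.01 and 0.01 over all tested probes.

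Among the extracellular antagonists, CRIM1 and FST were called. CRIM1, a membrane protein that binds BMPs, fell in ErbB2-KD, with log2 ratios of -1.63, -0.83, -2.49 and -1.87. The mean was -1.71 ± 0.69 (SD, n = 4), lower on 4 of 4 arrays (adjusted p = 0.0456, limma), and a second tested probe averaged -0.62 (adjusted p = 0.0972). Leaving out any 1 of arrays 1, 3 and 4 ended the call, with adjusted p between 0.151 and 0.169 (limma). The MUC4-KD values of CRIM1 were small and above 0, averaging 0.33 (adjusted p = 0.131, limma). The difference of -2.04 ± 0.32 (SE, adjusted p = 0.00900, limma) was called without each of the 8 arrays in turn, at adjusted p of 0.00350 to 0.0383, and with the sign turned it was -1.38 (adjusted p = 0.0225). Averaging MUC4-KD arrays 1 and 3, and 2 and 4, ended that call (adjusted p = 0.0556, limma).

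FST codes for follistatin, a secreted protein that binds activins and, less tightly, BMPs. It fell in the RNA labelled MUC4-KD, with ratios of -1.88, -1.36, -2.17 and -0.17 and a mean of -1.39 ± 0.88 (SD, n = 4, adjusted p = 0.0357, limma). Channels labelled Mock cleared background in 4 of 4 cases and those labelled MUC4-KD in 3 of 4, so FST entered the test through the channel where it was higher, and the size of its ratio is limited by the dim channel. From the scanner software's ratios, which on array 4 gave -3.19, the mean was -2.92. In ErbB2-KD the ratios of 0.74, 3.05, 1.02 and 0.34 were all above 0 and uneven, and their mean of 1.29 ± 1.21 (SD, n = 4) did not pass (adjusted p = 0.206, limma). The difference was 2.68 ± 0.61 (SE, adjusted p = 0.0294, limma). From the scanner software's ratios it was 5.26. The call in the RNA labelled MUC4-KD was lost without any 1 of arrays 1 to 3 (adjusted p 0.112 to 0.165), and that of the difference without ErbB2-KD array 3 or any 1 of MUC4-KD arrays 1 to 3 (adjusted p 0.0617 to 0.0957, limma). With the sign turned the difference was -0.10 (adjusted p = 0.920). Over the list, 1 of 7 tested antagonists passed in ErbB2-KD and 1 of 8 in the RNA labelled MUC4-KD. Over all tested probes 1.43% and 20.5% passed.

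Among SMADs and their regulators, SMURF2, a ubiquitin ligase that targets receptors and SMADs for degradation, rose in ErbB2-KD. Its ratios were 1.26, 1.75, 0.64 and 1.14, all above 0, with a mean of 1.20 ± 0.45 (SD, n = 4, adjusted p = 0.0494, limma). It lost the call without any 1 of the 4 arrays (adjusted p 0.0522 to 0.158, limma). On the MUC4-KD arrays it was also above 0 on 4 of 4 arrays, averaging 0.61 (adjusted p = 0.0759, limma). SKI and SKIL, co-repressors that bind SMADs, passed in the RNA labelled MUC4-KD in opposite directions, and both lost the call without any 1 of arrays 1 to 3 (adjusted p of 0.101 to 0.164 for SKI and 0.111 to 0.215 for SKIL, limma). Both were also lost with the slide as a random block (adjusted p = 0.0795 and 0.0501) and with the array pairs averaged (adjusted p = 0.0581 and 0.104, limma). SKI fell by 0.56 on the log2 scale at its brightest probe (adjusted p = 0.0378, limma), by 0.89 with no call from the scanner software's ratios, while its other tested probes gave -1.18 and -0.12. SKIL averaged 0.46 (adjusted p = 0.0490, limma). SMAD4 passed in neither experiment: its mean was -0.03 in ErbB2-KD (adjusted p = 0.932) and 0.36 in the RNA labelled MUC4-KD (adjusted p = 0.0684, limma).

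Among the target genes other than the members, HEY1, a transcriptional repressor induced by BMP and Notch, fell in the RNA labelled MUC4-KD. Its ratios were -0.83, -1.77, -0.89 and -0.27, with a mean of -0.94 ± 0.62 (SD, n = 4, adjusted p = 0.0431, limma). The call was lost without any 1 of arrays 1 to 3 (adjusted p 0.101 to 0.173, limma). In ErbB2-KD the mean was 0.52 ± 0.30 (SD, n = 4, adjusted p = 0.153, limma), and the difference was 1.45 ± 0.30 (SE, adjusted p = 0.0221, limma). That call was lost without ErbB2-KD array 3 or MUC4-KD array 1 or 3 (adjusted p 0.0572 to 0.0683, limma). From the scanner software's ratios HEY1 averaged -2.27 in the RNA labelled MUC4-KD, and its difference was 3.33. SMAD7, an inhibitory SMAD, was called only for the difference, at -0.56 ± 0.15 (SE, adjusted p = 0.0453, limma), a call that was lost without any 1 of ErbB2-KD arrays 1, 3 and 4 or MUC4-KD arrays 1 to 3 (adjusted p 0.0890 to 0.131, limma). It was -0.87 from the scanner software's ratios. ID1 and HEY1, both targets, thus lay in opposite directions in the RNA labelled MUC4-KD. In all, 0 of 6 tested targets other than BAMBI passed in ErbB2-KD (3 at an unadjusted p under 0.05) and 2 of 8 in the RNA labelled MUC4-KD. The shares over all tested probes were 1.43% and 20.5%. The E proteins TCF3, TCF4 and TCF12 passed in neither experiment (1 of 3 in each at an unadjusted p under 0.05). At the brightest probe of each, their mean ratios lay between -0.45 and -0.15 in ErbB2-KD and between -0.31 and 0.37 in the RNA labelled MUC4-KD. Other probes disagreed, since a second TCF3 probe gave 0.27 and 0.55, and a second TCF12 probe gave -0.49 and -0.84.

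**Figure D3:**
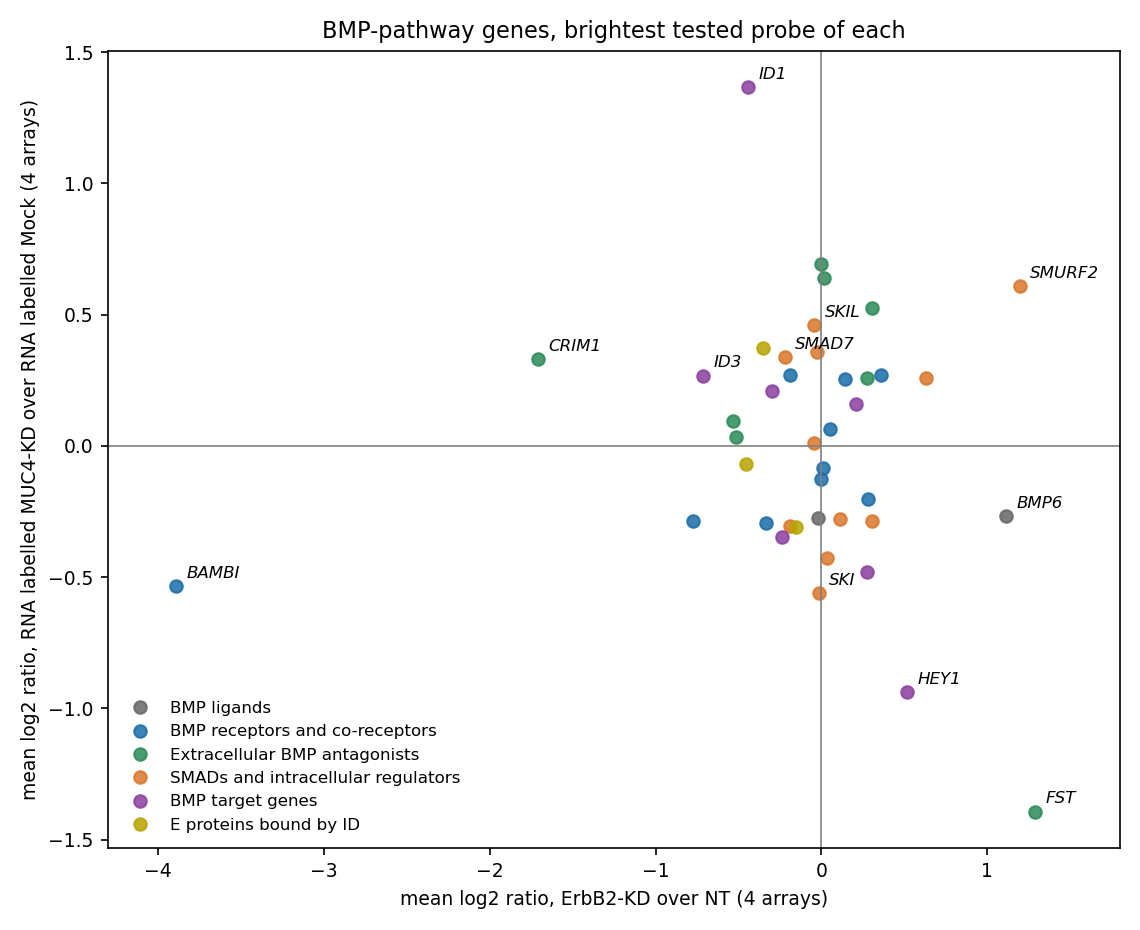
Mean log2 ratio in ErbB2-KD over NT (x axis) against that in the RNA labelled MUC4-KD relative to that labelled Mock (y axis) for the brightest tested probe of each pathway gene, coloured by list, 4 arrays on each axis. BAMBI lies apart on the left at -3.89, ID1 is highest on the y axis at 1.37, and FST lies at 1.29 and -1.39.

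**Figure D4:**
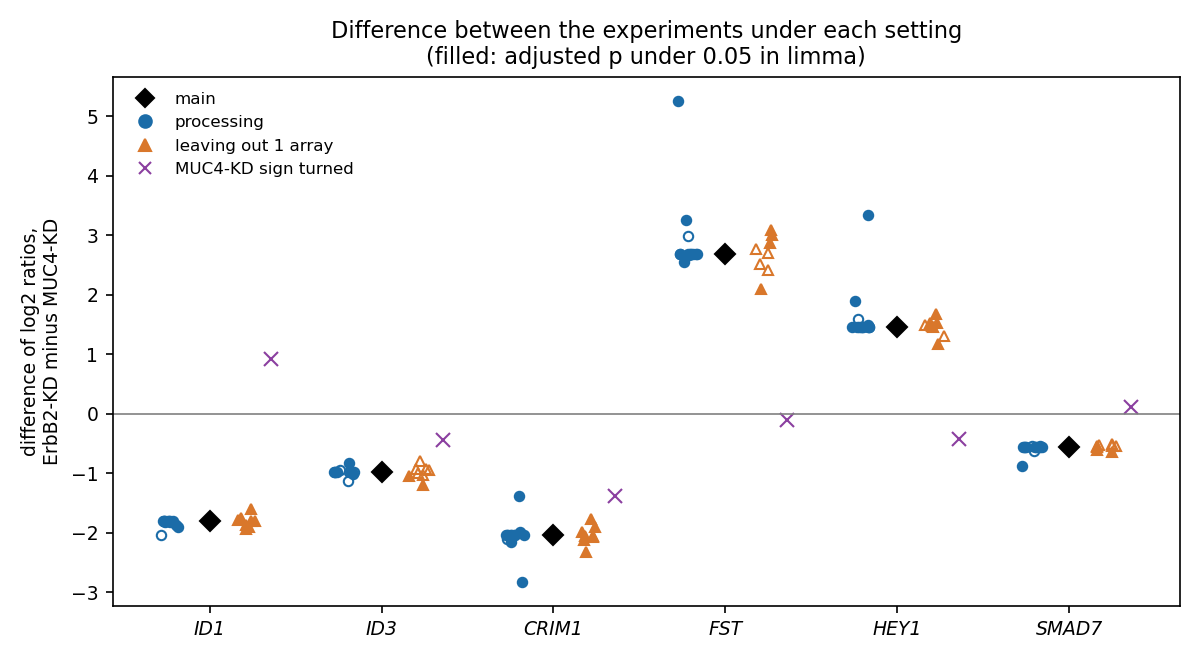
Difference of log2 ratios, ErbB2-KD minus MUC4-KD, for the 6 pathway genes called in it: black diamonds are the reported values, circles are other processing settings, triangles leave out 1 array each and crosses turn the sign of the MUC4-KD arrays. Filled circles and triangles passed an adjusted p of 0.05. ID1 and CRIM1 stay filled for all 8 arrays left out, whereas the crosses of ID1, FST, HEY1 and SMAD7 lie across the 0 line.

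The genes outside the lists whose ratios lay closest to those of BAMBI over the 8 arrays were KLF13, H2AJ, GNAZ, CX3CL1 and DPYSL5, by the root mean square difference among 23081 probes tested in both experiments. For KLF13, a zinc-finger transcription factor, it was 1.28 on the log2 scale, against a median of 3.19 over these probes. KLF13 had ratios of -4.69, -4.05, -1.41 and -4.42 in ErbB2-KD and of 2.17, -0.24, 2.06 and -0.18 in the RNA labelled MUC4-KD. It shared the higher values of arrays 1 and 3 but was near 0 on arrays 2 and 4, where BAMBI was at -2.35 and -1.97. The other 4 lay at 1.52 to 1.67 from BAMBI, also below 0 on all 4 ErbB2-KD arrays and higher on MUC4-KD arrays 1 and 3 than on arrays 2 and 4. All 5 were picked for closeness to BAMBI on these 8 arrays, so the shared fall and pairing largely follow from that choice. Among them, CX3CL1, a chemokine, was below 0 on all 8 arrays.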

How the data were processed

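The authors scanned 8 Agilent arrays and deposited the output of Feature Extraction 10.5.1.1: for each spot the median pixel intensity of both channels and of their background, and a log10 ratio, red over green, that the software had corrected for background and dye. Their deposited table of log10 ratios equals these, turned to knockdown over control by the labels, with column medians of 0, so it adds no further alternative. Its scale and centring are thus known. Its direction follows the labels, which MUC4 and the gene list of the study went against on the MUC4-KD arrays.

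The intensities were background-corrected by normexp (offset 50) and each array was normalised by loess in limma 3.58.1 (R 4.3.3), with control and outlier spots at weight 0. The labelled dyes gave the direction, knockdown over control, and 43376 spots were averaged to 41000 probes; 25398 had a gene symbol through their RefSeq accession and 15602 had none. Testing required a probe to exceed background clearly in 1 of the RNAs on each of the 4 arrays. Mean log2 ratios were tested against 0, and the experiments against each other over 8 arrays, with lmFit and eBayes and Benjamini-Hochberg adjustment over all tested probes. Clones are the replicates by the methods; for MUC4-KD, where the labels name none, arrays may share a clone, and the p-values may then measure a technical spread. With 4 arrays the smallest p of an exact sign-flip test is 0.125.

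The genes and lists were chosen with earlier results of these data known. Genes were named by a rule: the 10 members with all probes, represented by the brightest tested probe; pathway genes past an adjusted p of 0.05, up to 4 per list, direction and experiment; ERBB2 and MUC4; and the 5 symbols closest to BAMBI. Channel levels were scaled between arrays (Aquantile). Simulated data with 200 changed probes were used to check the steps. At a log2 change of 2 the tests recovered 84% in ErbB2-KD, 83.5% in the MUC4-KD experiment and 80.5% for the difference. At a log2 change of 1 they recovered 39%, 31% and 28.5%. A gene without a call may therefore still have changed. Alternatives were an offset of 10, the deposited log ratios, median centring, 2 other filters, a term for dye, the slide as a random or fixed block, an intensity trend, the methods' t-test, 1 fit over 8 arrays, the mean of a gene's probes, averaged array pairs, the replicate block, a turned sign and leaving out each array. The number of arrays limits the precision.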

Additional observations from a re-analysis of the deposited data

Results flagged for a closer look

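In ErbB2-KD, BMP6 had a log2 ratio of 3.78 on array 3, far from the other 3 arrays: its gap to the next array was 0.874 of the whole range, over Dixon's critical value for 4 samples, which chance passes in about 1 group of 20. This was 1 of 27 pairs of gene and experiment examined. BMP6 was put among them after its values were seen, so that rate does not apply to it. The value is a description and not a test.

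The ErbB2-KD and MUC4-KD ratios differed for 6 genes by the test of the difference over 8 arrays (limma, adjusted p under 0.05). The difference of log2 ratios, ErbB2-KD minus MUC4-KD, was -1.81 for ID1, -0.98 for ID3, -2.04 for CRIM1, 2.68 for FST, 1.45 for HEY1 and -0.56 for SMAD7. FST entered the MUC4-KD test through the channel labelled Mock, where it was higher. The size of its difference depends on how the background is handled, being 5.26 from the scanner software's ratios. With the sign of the MUC4-KD arrays turned, an alternative chosen after the data were seen, ID1 at 0.93 and CRIM1 at -1.38 still passed and the other 4 did not.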

How the results depend on the processing

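Over all tested probes, 342 were called in ErbB2-KD, 5131 in the RNA labelled MUC4-KD and 2559 for the difference. Median centring gave 31, 1 and 117, with 15 higher and 16 lower against 131 and 211 in ErbB2-KD, 1 and 0 against 3007 and 2124 in the RNA labelled MUC4-KD, and 8 and 109 against 882 and 1677 for the difference. The methods' t-test gave 0 (3176 at an unadjusted p under 0.05), 106 and 546. No filter on dim probes gave 50 in ErbB2-KD and 2930 in the RNA labelled MUC4-KD. In ErbB2-KD a dye term gave 190, an intensity trend 515, the slide as a random block 1095 and 1 fit over all 8 arrays 1121. For the difference the deposited log ratios gave 4076, the averaged array pairs 568, and the turned sign 4433. Leaving out 1 array gave 0 (without array 1) to 487 in ErbB2-KD, 154 (without array 3) to 9347 (without array 4) in the RNA labelled MUC4-KD, and 638 (without MUC4-KD array 3) to 5060 (without MUC4-KD array 4) for the difference. The cause of these shifts was not tested.

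Averaging MUC4-KD arrays 1 and 3, and 2 and 4, leaves 2 values there and also ended the difference of FST (adjusted p = 0.0989) and SMAD7 (0.134, limma), while ID1 (0.0206) and HEY1 (0.0369) kept it.

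The replicate numbers did not pair the arrays: the deviations of same-numbered arrays correlated at -0.05 to -0.24, and no array was closest to its own number. ErbB2-KD arrays 1, 2, 3 and 4 were closest to MUC4-KD arrays 3, 4, 1 and 2. In each of these matches the knockdown RNA carried the same dye. The part of the dye in this was not tested. The replicate block gave 584 probes for the difference, and ID3 (adjusted p = 0.107), FST (0.0693), HEY1 (0.0549) and SMAD7 (0.118, limma) lost the call under it.

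Among the named genes, 267 processing alternatives kept direction and left a gene called or uncalled as before, 54 lost a call and 3 reversed. BAMBI, which has no call, counted as kept where its mean moved by less than its SD. Median centring ended every call of the pathway genes. Leaving out 1 array kept 99, lost 40, gained 1 and reversed 8. For the difference the reversals were ID4 under the deposited log ratios (-0.12) and without single arrays (down to -0.15, the range reaching 0.20), SMAD1 under median centring (-0.0276) and without ErbB2-KD array 2 (-0.0293, the range reaching 0.27), and SMAD9 with the slide as a fixed block, chosen after seeing the data (0.00597), and without single arrays (-0.15 to 0.0464). In the RNA labelled MUC4-KD they were BAMBI, whose arrays lay on both sides of 0, without array 2 (0.0691, lowest -1.12) and SMAD9 without array 3 (-0.0704, highest 0.11). With the sign turned, the differences of ID1 (0.93), SMAD1 (-0.49), FST (-0.10), HEY1 (-0.42) and SMAD7 (0.12) reversed. BAMBI in ErbB2-KD lay between -4.86 and -3.41 throughout. Signal over background limits BMP2, BMP4, ID2 and SMAD6 to values without a test.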
